A study of Mus musculus with 3 samples.

Results

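The hAT-Charlie names were studied in RNA pulled down from mouse hippocampus with antibodies to ZBP1 or to Z-form nucleic acid (ZNA). They were taken from the repeat names of the count tables as every name that starts with Charlie, URR1, Arthur, Cheshire or Zaphod, together with MER5 and MER20 names. This rule found 66 of the 18484 listed names, of which 45 are Charlie, 6 Zaphod, 5 Arthur, 5 MER5, 2 MER20, 2 URR1 and 1 Cheshire. RNA immunoprecipitation sequencing (RIP-seq) reads out RNA bound, directly or through other molecules, by what the antibody recognises. Each group had 1 library. Anti-ZBP1 was used on PS19 mice (the ZBP1 library), and anti-ZNA on PS19 mice (the PS19 ZNA library) as well as on wild-type mice (the WT library). All mice had an age of 9 months and a C57BL/6 background. PS19 mice express a mutant human tau transgene from the mouse prion promoter, so that tau is overexpressed and not at its native level. Whether a library came from a single mouse or from pooled mice is not given in the sources used here, and a WT library for ZBP1 and an input library were not used here.

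hAT elements are DNA transposons. An intact copy encodes a transposase that recognises the short inverted repeats at the ends of the element, cuts the element out and inserts it elsewhere, with no RNA intermediate. Most copies in mammals are old fragments, many of them short derivatives without a transposase gene that were moved by the enzyme of a longer relative. Reads on such a name can come from any longer transcript that carries a copy, in an intron or an untranslated region for example, as well as from RNA that starts in the element. RepeatMasker places Charlie, URR1, Cheshire, MER5 and MER20 in the Charlie branch of the hAT superfamily, and Arthur and Zaphod in the Tip100 branch. The label hAT-Charlie is therefore too narrow for 11 of the 66 names. A name pools all copies in the genome, so no position, host gene or strand belongs to any value below, and reads of close relatives can be exchanged between names.

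Where 3 values follow each other below, they stand for the ZBP1, PS19 ZNA and WT libraries in that order. Reads on repeat names numbered 1425383, 2918985 and 3234786. Ribosomal RNA names took 89.4 to 95.5% of them, which left 74474, 308613 and 145372 reads outside rRNA. Values are given per 1000000 reads of a library (CPM) and per 1000000 reads outside rRNA (here RPM), since a change in the rRNA share moves every CPM value together. One read was worth 0.702, 0.343 and 0.309 CPM. BC1_Mm, the name of the neuronal BC1 RNA, had 33, 146 and 77 reads, or 443, 473 and 529.7 RPM. None of 5 cell type marker genes sought (0 of 5) was listed, as the tables hold repeat names. With no replicates, no test between groups was possible. Intervals are 95% intervals that cover counting error only, and they compare these libraries and not the genotypes or antibodies. Reads carry no molecular identifiers and are not independent molecules.

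The hAT-Charlie names made up nearly the same part of the non-ribosomal reads in all 3 libraries. They held 734, 2815 and 1325 reads. Per reads outside rRNA, this was 0.986% (Wilson interval 0.917 to 1.06%), 0.912% (0.879 to 0.946%) and 0.911% (0.864 to 0.962%), and the intervals overlap. Per library total the order was different. The shares were 0.0515%, 0.0964% and 0.0410%, so that the PS19 ZNA library stood above both others. The rRNA share moves with this result, as it was lowest in the PS19 ZNA library.

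Few names carried most of the reads. The 15 most abundant members held 79.8%, 79.6% and 80.8% of the hAT-Charlie reads, and the top 3, URR1B, URR1A and Charlie1a, held 42.8%, 48.6% and 50.5%. Of the 66 names, 63 had a read in at least 1 library and 47 had reads in all 3. Charlie12, Charlie17a and Charlie32a had none, and their limit, taken as 3 reads, was 2.10, 1.03 and 0.927 CPM in the respective libraries. Of the rest, 19 names had 1 to 9 reads over the 3 libraries and 10 had 10 to 19. A member entered a comparison with a mean of at least 1 CPM and at least 20 reads over the 2 libraries. Each comparison took 32 members, 30 of them in both, and 32 of the 66 entered neither. Those 32 held 40, 117 and 57 reads, or 5.45%, 4.16% and 4.30% of the hAT-Charlie reads, with at most 10 reads for any name in a library. Since the filter is on abundance, a name with few reads in the lower library could enter through the higher one.

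**Figure D1:**
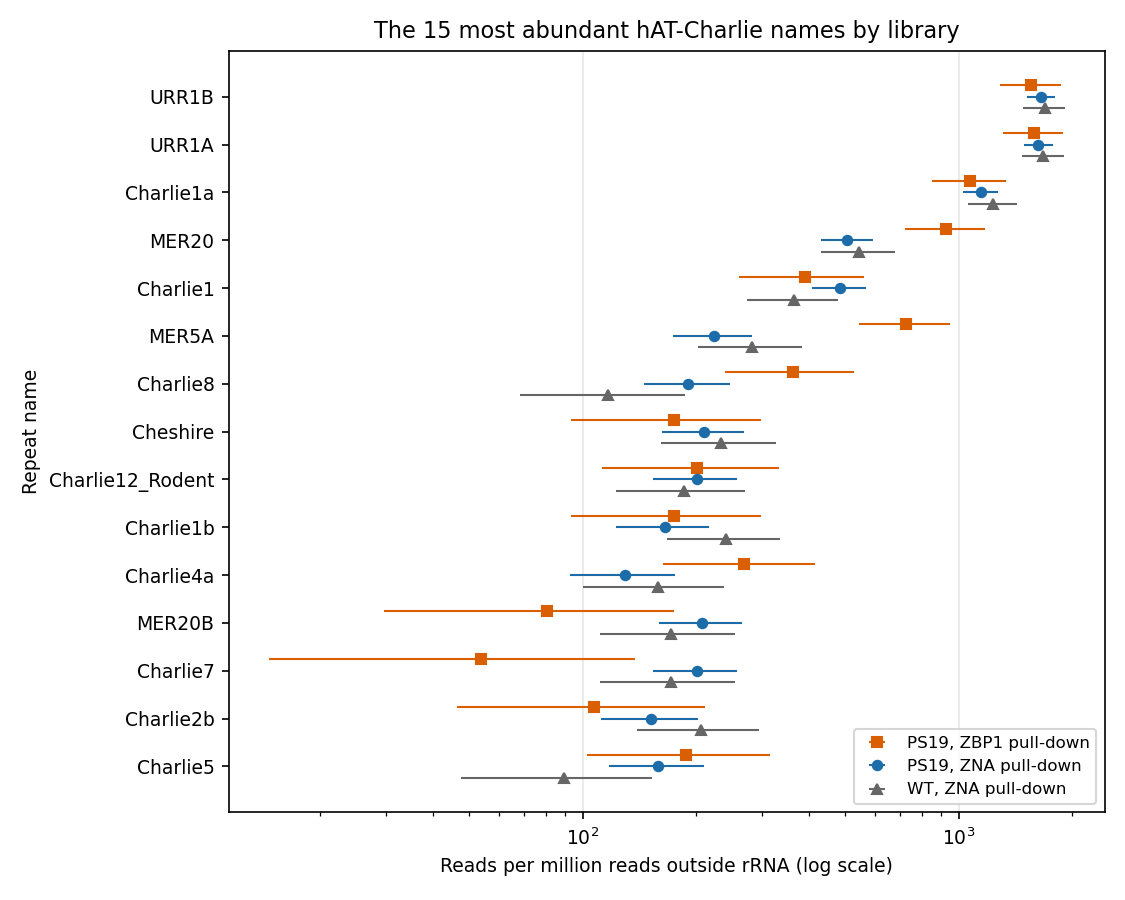
Level of the 15 most abundant hAT-Charlie names in each library, in RPM (reads per 1000000 reads outside rRNA) on a log axis. Points are single libraries and bars are exact Poisson 95% intervals. URR1B, URR1A and Charlie1a lie close together in all 3 libraries, whereas MER5A and MER20 are highest and Charlie7 and MER20B lowest in the ZBP1 library.

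The 2 most abundant members were the rodent-specific URR1 elements. URR1B had 116, 512 and 246 reads, which is 1558, 1659 and 1692 RPM. URR1A had 118, 503 and 244 reads, or 1584, 1629.9 and 1678 RPM. The 2 names are close relatives and their levels were almost equal in each library. Pooled, URR1 reads outside rRNA had a PS19 to WT ratio of 0.976 (0.875 to 1.09) in the ZNA pull-down. Their ZBP1 to ZNA ratio within PS19 was 0.955 (0.825 to 1.10), and both intervals include 1.

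Charlie is the family of autonomous hAT elements for which this branch is named, and lettered Charlie names are in general shorter, internally deleted relatives. Charlie1a had 80, 353 and 179 reads (1074, 1144 and 1231 RPM). Charlie1 had 29, 149 and 53 reads (389, 483 and 365 RPM), and Charlie1b had 13, 51 and 35 reads (175, 165 and 241 RPM). The 3 Charlie1 names together had pooled ratios per reads outside rRNA of 0.976 (0.842 to 1.13) for PS19 over WT and 0.914 (0.745 to 1.11) for ZBP1 over ZNA. Charlie12_Rodent stood at 201, 201 and 186 RPM on 15, 62 and 27 reads, with no difference beyond counting error. Charlie5 had 14, 49 and 13 reads (188, 159 and 89.4 RPM), Charlie2b 8, 47 and 30 (107, 152 and 206 RPM) and Charlie4a 20, 40 and 23 (269, 129.6 and 158 RPM). Charlie8 was highest in the ZBP1 library, with 27, 59 and 17 reads (363, 191 and 117 RPM). Charlie7 was lowest there, with 4, 62 and 25 reads (53.7, 201 and 172 RPM). Cheshire, a single name, had 13, 65 and 34 reads (175, 211 and 234 RPM).

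The MER5 and MER20 elements are short derivatives without a transposase gene. MER5A had 54, 69 and 41 reads (725, 224 and 282 RPM). It was highest in the ZBP1 library, and the intervals of the other 2 libraries overlap. MER20, whose copies are known as regulatory elements in cells of the uterine lining, had 69, 156 and 79 reads (926, 505 and 543 RPM). MER20B had 6, 64 and 25 reads (80.6, 207 and 172 RPM), the opposite order. The Tip100 names were minor: the 5 Arthur names held 25, 100 and 44 reads and the 6 Zaphod names 20, 68 and 37.

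**Figure D2:**
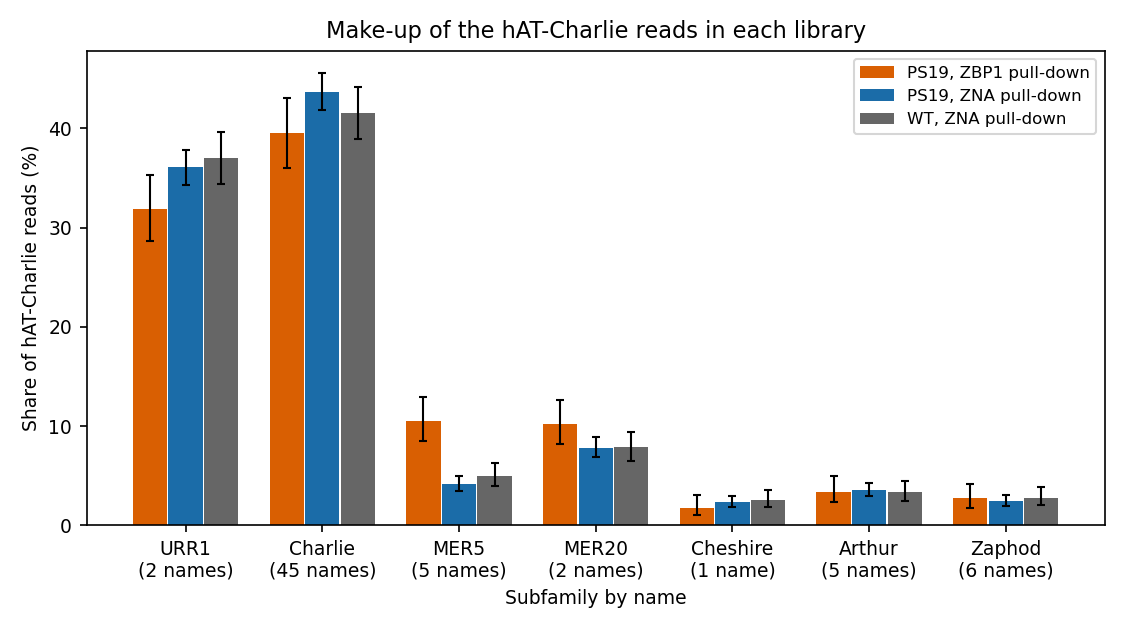
Share of the hAT-Charlie reads that falls on each subfamily, in percent, for the 3 libraries. Bars are single libraries and error bars are Wilson 95% intervals. MER5 holds 10.5% of the hAT-Charlie reads in the ZBP1 library against 4.16% and 4.98% in the ZNA libraries.

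The first comparison asked how the hAT-Charlie reads of the ZNA pull-down differed between PS19 and WT. Per library total, pooled hAT-Charlie reads were 2.35-fold higher in PS19 (exact conditional interval 2.20 to 2.52), and per reads outside rRNA the ratio was 1.0 (0.937 to 1.07). Every subfamily with reads followed this pattern: pooled ratios per library total ran from 1.96 for MER5 (1.44 to 2.70) to 2.52 for Arthur (1.75 to 3.68), and per reads outside rRNA from 0.835 (0.612 to 1.15) to 1.07 (0.744 to 1.56). All 7 intervals per reads outside rRNA include 1. Within the hAT-Charlie reads, the ratio of a subfamily over the other members ran from 0.827 for MER5 (0.602 to 1.15) to 1.09 for Charlie (0.956 to 1.25). Such a ratio of ratios does not depend on how libraries are scaled.

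By name and per library total, 22 of the 32 compared members stood 2-fold or more above WT and 0 of 32 stood 2-fold or more below it, on log2(CPM + 1). For all 713 compared names these shares were 74.3% and 0.421%. The median log2 ratio was 1.15 for the members and 1.24 for all names. Scaled to the reads outside rRNA, 1 member was at least 2-fold higher and 1 lower, against 3.52% and 2.39% of 711 names, and the medians were 0.06 and 0.07. Both are lettered Charlie29 names on few reads. Charlie29a had 18 reads in PS19 and 3 in WT, a ratio of 2.83 per reads outside rRNA (0.825 to 15). Charlie29b had 10 and 13 reads and was 2.76-fold lower in PS19 (1.12 to 7.03). The other names at the ends of the list were Charlie4 (25 and 6 reads, log2 ratio 0.78), Charlie5 (0.74), Arthur1B (21 and 20 reads, -0.88) and Charlie1b (-0.51). The intervals of Charlie4, Charlie5 and Charlie1b include no difference, and that of Arthur1B runs from 1.04-fold to 3.92-fold lower. Among 12 pairs of related names with at least 20 reads each over the 3 libraries, 4 differed beyond the 95% interval of their ratio of ratios, such as Charlie1 over Charlie1b at 1.93 (1.09 to 3.39) and Arthur1 over Arthur1B at 3.33 (1.31 to 8.56). None of these 4 did when the intervals were widened to hold for all pairs in both comparisons (0.801 to 4.6 and 0.817 to 14.4 for the pairs named). The members therefore moved with the other names of these libraries, at shares close to the background.

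Next, the 2 antibodies were compared within PS19, ZBP1 over ZNA. Pooled hAT-Charlie reads were 1.87-fold lower in the ZBP1 library per library total (1.73 to 2.03) and 1.08-fold higher per reads outside rRNA (0.995 to 1.17). Here the subfamilies parted. MER5 reads had a ZBP1 to ZNA ratio of 2.73 per reads outside rRNA (2.02 to 3.67) and MER20 reads one of 1.41 (1.07 to 1.84), whereas URR1, Charlie, Cheshire, Arthur and Zaphod lay between 0.829 and 1.22 with intervals that include 1. Even per library total the MER5 ratio was 1.35 (0.997 to 1.81), against 0.472 (0.408 to 0.545) for URR1 and 0.483 (0.423 to 0.549) for Charlie.

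Within the hAT-Charlie reads, MER5 stood 2.70-fold above the other members in the ZBP1 relative to the ZNA library (1.97 to 3.68). Among the 14 such ratios, for 7 subfamilies in 2 comparisons, this was the one whose interval excluded 1 when the intervals were widened to hold for all 14 (1.70 to 4.25). Of the 3 MER5 names compared, MER5A had an interval that excludes 1, with a ratio per reads outside rRNA of 3.24 (2.23 to 4.70). MER5A1, on 8 and 14 reads, had 2.37 (0.861 to 6.05) and MER5B, on 14 and 29 reads, 2.0 (0.977 to 3.91), both with intervals that include 1. Without MER5A, which holds most of the MER5 reads, MER5 stood 1.97-fold above the other members (1.13 to 3.33). The other MER5 names, MER5C and MER5C1, had 0 and 1 reads in the ZBP1 library and 2 and 3 in the ZNA library.

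MER20 and MER20B, names of close relatives, differed from each other in this comparison. The MER20 ratio per reads outside rRNA was 1.83 (1.36 to 2.45), and MER20B was 2.57-fold lower in the ZBP1 library (1.12 to 7.27). Their ratio of ratios was 4.72 (1.92 to 13.9). Of the 12 pairs of related names in 2 comparisons, this was the 1 pair whose interval excluded 1 when widened to hold for all 24 (1.28 to 28.0). By contrast URR1A and URR1B had a ratio of ratios of 1.04 (0.771 to 1.39), and MER5A and MER5B one of 1.62 (0.741 to 3.65). Without MER20 names among the others, the MER5 excess was 2.80-fold (2.04 to 3.82).

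By name, 0 of the 32 members compared were at least 2-fold higher in the ZBP1 library per library total and 16 were at least 2-fold lower, against 0.293% and 50.1% of 682 names. Medians were -1.01 for the members and -1.0 for all names. Scaled to the reads outside rRNA, 2 members were at least 2-fold higher and 4 lower, where 8.09% of 680 names were higher and 8.09% lower. The 2 higher names were MER5A and MER5A1, and Charlie4a followed with 2.07-fold (1.15 to 3.63), just under 2-fold on the log2 scale with a pseudocount (0.98). Charlie8 also had an interval that excludes 1, at 1.90-fold (1.16 to 3.04, log2 ratio 0.88). The 4 lower names were Charlie2a, Charlie7, MER20B and Charlie4. Charlie2a was 5.79-fold lower on 2 and 48 reads (1.52 to 49.2), Charlie7 3.74-fold lower (1.39 to 14.2) and Charlie4 3.02-fold lower on 2 and 25 reads (0.752 to 26.3). The ratio of ratios for Charlie4 over Charlie4a was 0.160 (0.0170 to 0.766), and its widened interval includes 1 (0.00322 to 1.42). The intervals of the lower names are wide because the ZBP1 library holds 2 to 6 reads on each.

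**Figure D3:**
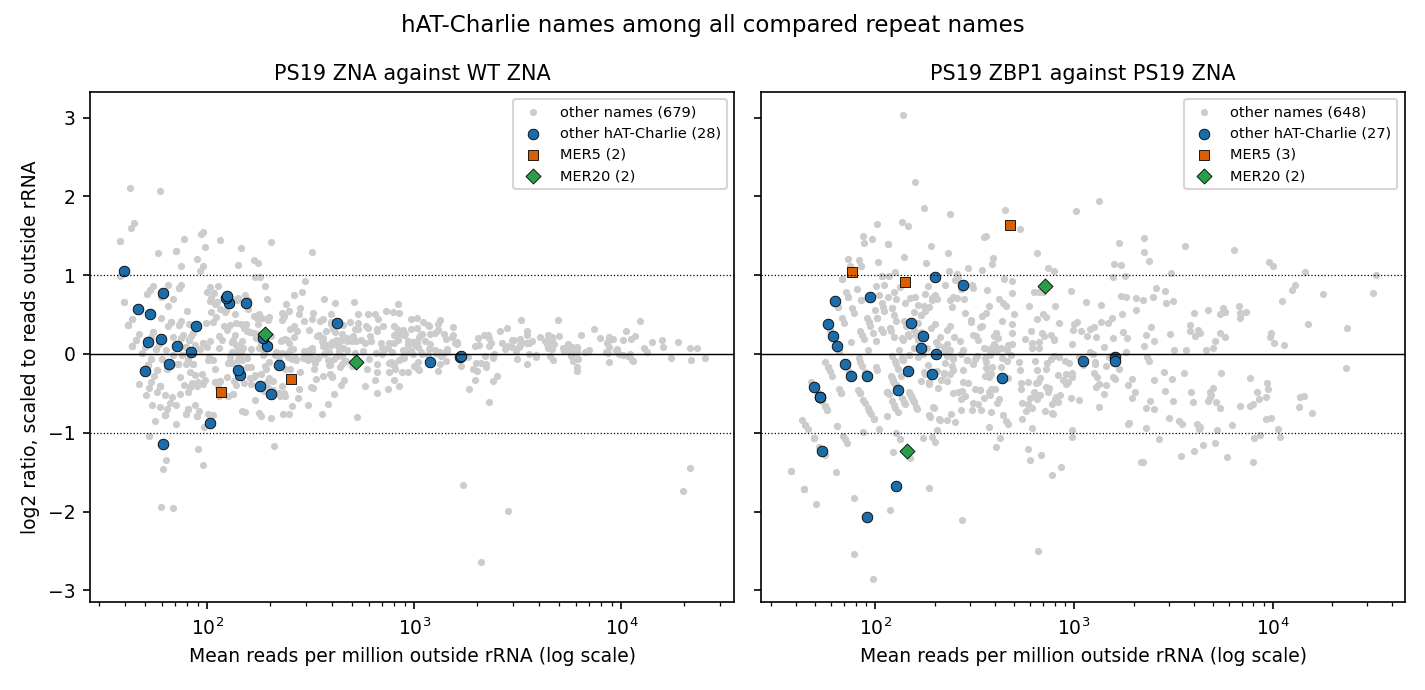
log2 ratio of each compared repeat name, scaled to reads outside rRNA and with a pseudocount of 1 CPM, against its mean level in RPM (log axis). Grey points are other repeat names, coloured points are hAT-Charlie names, and dotted lines mark 2-fold. The 3 MER5 names lie at 0.91 to 1.64 in the ZBP1 against ZNA comparison and the members spread more widely there than in the PS19 against WT comparison.

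The ratios of the members were spread more widely in the ZBP1 against ZNA comparison than in the PS19 against WT comparison, a difference that was not tested. Over the 18 members with at least 50 reads in the 2 libraries, log2 ratios had a standard deviation of 1.03 for ZBP1 against ZNA, where counting error alone gives about 0.476. For PS19 against WT it was 0.437 over 18 members, where counting error gives about 0.326. Over all names with as many reads the values were 0.725 and 0.324 (504 names) for ZBP1 against ZNA, and 0.443 and 0.259 (523 names) for PS19 against WT. The 18 members for ZBP1 against ZNA include Charlie2a (2 and 48 reads), Charlie7 (4 and 62) and MER20B (6 and 64). These names entered mainly through their reads in the ZNA library, and the spread without them was not computed. Of the 30 members compared in both, 28 had their highest CPM in the PS19 ZNA library, and the exceptions were MER5A and Charlie4a, highest in the ZBP1 library. Per library total, the ZBP1 to ZNA ratio was 1.60 (1.10 to 2.32) for MER5A. For Charlie4a it was 1.02 (0.567 to 1.79), on 14.0 and 13.7 CPM, which is nearly a tie. Of all 668 names outside rRNA compared in both, 608 (91.0%) had their highest CPM in the PS19 ZNA library. Per reads outside rRNA the highest level was spread over the ZBP1 (10 members), PS19 ZNA (12) and WT (8) libraries, against 278, 243 and 147 of the 668 names. Both comparisons share the PS19 ZNA library.

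The hAT-Charlie names were last set beside 4 other sets of old repeats. The set called other hAT names holds some, but not all, of the hAT names outside the rule, listed by name and not by branch. A difference between it and the members is therefore one between 2 lists of names, and not between the Charlie branch and other branches. The PS19 to WT ratio per reads outside rRNA was 1.06 (0.956 to 1.18) for 43 other hAT names and 1.10 (0.986 to 1.22) for 36 Tigger and mariner names, which are DNA transposons of another superfamily. It was 0.85 (0.784 to 0.922) for 5 MIR names, an ancient SINE family, and 1.09 (1.04 to 1.16) for 9 L2 names, the LINE family that moved MIR. The members stood 1.18-fold above MIR (1.06 to 1.31) and at 0.915 of L2 (0.840 to 0.997). In the ZBP1 against ZNA comparison the ratios were 1.69 (1.52 to 1.89) for other hAT names, 1.14 (1.0 to 1.29) for Tigger and mariner, 1.72 (1.58 to 1.88) for MIR and 1.19 (1.12 to 1.27) for L2 names. The other hAT names thus stood 1.57-fold above the members (1.36 to 1.80), and 1.21-fold above (1.01 to 1.44) without FordPrefect, their most abundant name, which had 248, 452 and 163 reads. Pooled MER5 reads lay above both the other hAT names, 1.61-fold (1.17 to 2.21), and MIR, 1.58-fold (1.15 to 2.16). By name the sets overlapped. The highest log2 ratio per reads outside rRNA was 1.64 among MER5 names, 1.77 among MIR names and 1.65 among Tigger and mariner names. It was 1.19 among other hAT names and 0.61 among L2 names. Of the other hAT names compared, 2 of 16 were at least 2-fold higher and 0 lower in the ZBP1 library per reads outside rRNA, as were 2 of 18 and 0 of 18 Tigger and mariner names, 1 of 5 and 0 of 5 MIR names, and 0 of 6 L2 names in either direction. Of all 680 names compared, 8.09% were higher and 8.09% lower. With so few names per set, a difference from these shares was not tested.

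**Figure D4:**
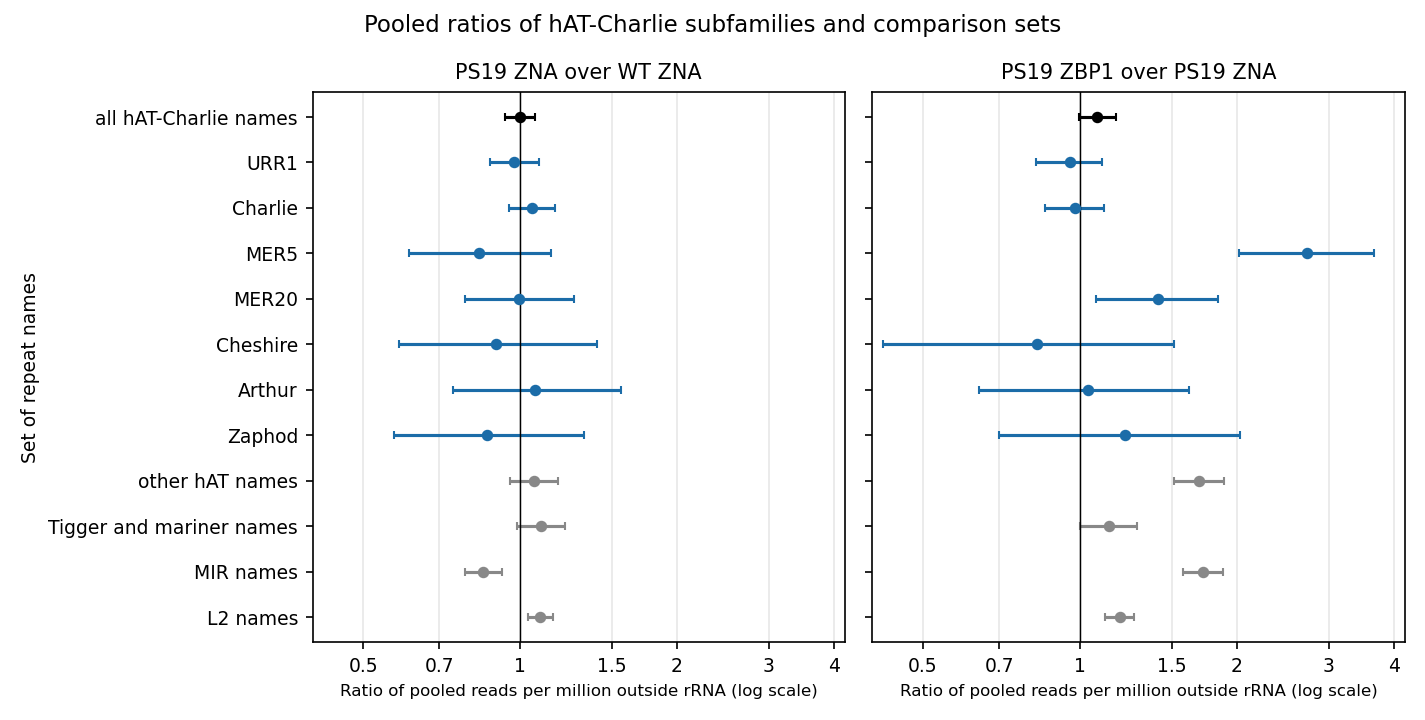
Ratio of pooled levels in RPM between libraries (log axis), for all hAT-Charlie names, their subfamilies (blue) and 4 comparison sets (grey). Points are ratios of single libraries and bars are exact conditional 95% intervals. MER5 stands at 2.73 for ZBP1 over ZNA, and every hAT-Charlie interval includes 1 for PS19 over WT.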

How the data were processed

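RNA immunoprecipitation sequencing was done on hippocampus in 3 libraries, 1 per group, with groups taken from the sample titles. The authors deposited raw read counts for each repeat name, not normalized, as the file headers and whole-number values show. The submitters' processing notes name Trim Galore 0.6.5, STAR 2.5.3a, featureCounts 2.0.4 and the mm39 build. The repeat annotation, the strand setting and the treatment of reads with many hits are not given in the sources used here. That last choice decides how reads are divided between related names. No consensus sequences of the repeats were used here.

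From the counts, CPM over all names and reads per 1000000 reads outside LSU-rRNA_Hsa and SSU-rRNA_Hsa were computed. Log2 ratios carry a pseudocount of 1 CPM after libraries were brought to a common scale. Ratios printed as folds have none, and their exact conditional (Clopper-Pearson) intervals, like the exact intervals of ratios of ratios, are at 95%. Widened intervals are Bonferroni intervals. With 1 library per group edgeR's test could not be fitted, and edgeR supplied TMM and RLE factors only. The script was checked on simulated Poisson counts. These hold counting error only, so the check does not bear on differences between real libraries beyond it. Named were the 15 members with the highest mean CPM, the 3 highest and 3 lowest ratios per reads outside rRNA in each comparison, members past 2-fold on that scale and those with no read. The members and lists were chosen with earlier results of these data known. Versions were R 4.3.3 with edgeR 4.0.16, and Python 3.11.15 with scipy 1.17.1, pandas 2.3.3, numpy 2.4.6 and matplotlib 3.10.9.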

Additional observations from a re-analysis of the deposited data

How the results depend on the processing

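The scaling decided the values per library total, since the other scalings remove most of the shift that non-ribosomal names share. For PS19 against WT, the pooled log2 ratio of 1.24 became 0.0011 per reads outside rRNA, -0.057 under TMM and -0.025 under RLE. The median of 1.15 became 0.061, 0.012 and 0.038, and 22 higher and 0 lower members became 1 and 1 under each. For ZBP1 against ZNA, the pooled log2 ratio of -0.91 became 0.11, -0.045 and -0.0074 and the median of -1.01 became -0.065, -0.22 and -0.18. There 0 higher and 16 lower members became 2 and 4 per reads outside rRNA, and 1 and 4 under TMM and under RLE. A pseudocount of 5 gave a PS19 against WT median of 0.80 with 10 higher members, and 8 members lower in the ZBP1 library. Raising the filter to a mean of 10 CPM gave 13 and 9, as fewer names were compared. Without a filter 2 members were higher and 25 lower in the ZBP1 library. At 4-fold the counts were 0 and 3, and at 1.5-fold 1 member was higher in the ZBP1 library. Shares over all compared names were computed only at 2-fold, for the library total and for the reads outside rRNA. The counts under the other settings therefore have no background beside them and show no trait of the members. Leaving out Arthur and Zaphod, or URR1B from the pooled ratios, moved none of the values recomputed without them beyond counting error. The MER5 excess and the excess of other hAT names, both examined after the counts had been seen, kept their direction without their most abundant name (1.97 and 1.21). Of 175 recomputed log2 ratios of named members, 152 stayed within their counting interval, 23 moved beyond it, all 23 per library total, and 0 of those past 2-fold changed sign. No paired analysis was possible because each group has 1 library. Depth limits the ZBP1 library most.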

Other observations

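The Charlie names divide by the letter at the end of the name, a split chosen after the counts had been seen. In the PS19 against WT comparison of the ZNA pull-down, the 15 names without a letter, which include the autonomous elements, held 522 reads in PS19 and 186 in WT, a ratio of 1.32 per reads outside rRNA (1.12 to 1.57). The 30 lettered names held 708 and 364 reads, a ratio of 0.916 (0.806 to 1.04). The ratio of these ratios was 1.44 (1.16 to 1.79). It was 1.44 (1.13 to 1.84) without Charlie1, 1.46 (1.14 to 1.88) without Charlie1a and 1.38 (1.04 to 1.85) without Charlie1, Charlie1a and Charlie1b. By name, 10 of the 10 letterless Charlie names compared lay above 0 per reads outside rRNA (9 under TMM scaling), with log2 ratios from 0.03 to 0.78. The ratio of each of these 10 had an interval that includes 1. Of the 11 lettered names, with log2 ratios from -1.15 to 1.05, 4 lay above 0. Of all 711 names compared, 424 (59.6%) lay above 0, as did 17 of the 32 members (53.1%). Letterless names too scarce to be compared went both ways. In PS19 and WT, Charlie9 (2 and 2 reads) and Charlie17 (4 and 5) lay below 0, and Charlie6 (9 and 1) and Charlie11 (4 and 0) above. Since the split was chosen from these counts and the filter is on abundance, the count by name is no separate support for it. In the ZBP1 against ZNA comparison within PS19 the same ratio of ratios was 0.829 (0.631 to 1.09), an interval that includes 1. The intervals cover counting error only and were not widened for the choice of the split. Whether the split would recur between replicate libraries was not tested.

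Some of the scarce members were seen in few libraries. Charlie4z had 3 reads in the ZBP1 library, or 40.3 RPM (exact Poisson interval 8.31 to 118), and 0 in either ZNA library. With the limit taken as 3 reads, a count of 0 allows up to 9.72 RPM in PS19 and 20.6 RPM in WT. These ranges overlap. Zaphod3 had 7, 10 and 1 reads in the ZBP1, PS19 ZNA and WT libraries, and Zaphod4a 0, 7 and 7. Per reads outside rRNA, the PS19 to WT interval of Zaphod3 includes 1 (0.670 to 204) and per library total it does not (1.58 to 481). These names were picked after their counts had been seen.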
